A study of Homo sapiens with 6 samples.

Results

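The endothelin system was followed through 3 of its genes, the ligand gene EDN1, the converting enzyme gene ECE1 and the type B receptor gene EDNRB. They were measured by 8 of the 54613 probe sets left after the controls, taken by gene symbol in the platform annotation where a probe set carried exactly 1 symbol. Of 4 genes listed, 1 is not analysed here. EDNRB was chosen on its lower signal on aligned fibers, so its difference between the substrates is a description and carries no test. EDN1 and ECE1 were added for their place in the pathway.

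U251, an established human glioma cell line, was grown on electrospun nanofibers of the polyester poly-caprolactone, which were highly aligned in 3 cultures and randomly oriented in 3. All 6 cultures were kept for 24 h in DMEM with 10% fetal bovine serum and antibiotics, with no other treatment, and each gave 1 Affymetrix HG-U133 Plus 2 array. Each culture was independent by the series' design text, and all came from 1 line. Signals are log2 values in which a difference of 1 is a doubling, and every difference is aligned minus random.

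Endothelin-1 is a short, strongly vasoconstricting peptide. Its precursor is cut by furin-like convertases to big endothelin-1, which the membrane protease ECE1 cleaves to the active form. The receptors are coupled to G proteins and raise calcium through phospholipase C, with protein kinase C and MAP kinases downstream. In the brain EDNRB is found on astrocytes, where endothelin-1 is known to promote proliferation and reactivity, and in development the receptor is needed by the neural crest cells that form melanocytes and enteric neurons.

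The array of aligned replicate 3 lay apart from the others, at a root mean square distance of 0.38 log2 units from the mean of the random arrays over 12381 genes, against 0.17 and 0.19 for the other aligned arrays and 0.088 to 0.13 for the random ones. The random arrays are part of that mean, so their distances are smaller by construction. The distance of an aligned array also includes the difference between the substrates. As aligned replicate 3 lay farthest, the members' differences and the list medians are also given without it. Of 10 astrocyte markers, 7 were above the filter on dim signal, which asked for at least 3 of 6 arrays above their own median. Their mean over the list lay between 8.49 and 9.04 on aligned and between 8.87 and 9.24 on random fibers. FABP7, the fatty acid binding protein of radial glia, and the gap junction gene GJA1 read 10.39 or more on every array, while S100B, AQP4 and ALDH1L1 were dim. Of 10 endothelial markers, the cells best known for EDN1, 3 were above the filter, with a list mean of 5.79 to 6.15 on aligned and 5.83 to 6.02 on random fibers, and CDH5, TEK, TIE1, ERG, ESAM, CLDN5 and EMCN were dim. Of the other marker lists, the filter passed 7 of 9 genes for fibroblasts and smooth muscle and 5 of 7 for neurons. Over both substrates, the list mean lay between 6.40 and 6.85 for the first and between 6.42 and 6.67 for neurons. The array medians, which set the filter, were 5.63 to 5.66, and 27621 of 54613 probe sets passed it. For myeloid cells 6 of 7 genes were analysed here and 1 passed. For melanocytes 4 of 5 were analysed here and 2 passed.

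EDNRB, the type B endothelin receptor, read lower on aligned fibers by all 3 of its probe sets. The differences of the 2 that were above the array median on all arrays were -0.95 and -0.88, or 1.93- and 1.84-fold higher on random fibers, and the third was dim on aligned fibers, where its level is uncertain. These are the values that led to its choice. Its 2 promoter windows are shown because they are the DNA around the start sites of the receptor gene whose signal differed. They are from RefSeq on GRCh38.p14, minus strand, 5′ to 3′, and each runs from 250 bases before a start site to 50 after it. Capitals mark matches, on either strand, to 5 motifs. The AP-1 motif was searched as TGANTCA. For GATA factors the letters were AGATAA. The hypoxia response core was searched as ACGTG. The GC box was searched as GGGCGG. The SOX motif was searched as ACAAAG. The upstream window lies at chr13:77919633-77919932 and the downstream one at chr13:77918782-77919081.
EDNRB upstream start: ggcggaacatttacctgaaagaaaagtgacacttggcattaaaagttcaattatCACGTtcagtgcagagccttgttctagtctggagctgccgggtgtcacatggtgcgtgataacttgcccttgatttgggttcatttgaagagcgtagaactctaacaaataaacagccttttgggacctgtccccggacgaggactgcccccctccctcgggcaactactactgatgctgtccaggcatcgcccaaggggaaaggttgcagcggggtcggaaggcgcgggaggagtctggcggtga
EDNRB downstream start: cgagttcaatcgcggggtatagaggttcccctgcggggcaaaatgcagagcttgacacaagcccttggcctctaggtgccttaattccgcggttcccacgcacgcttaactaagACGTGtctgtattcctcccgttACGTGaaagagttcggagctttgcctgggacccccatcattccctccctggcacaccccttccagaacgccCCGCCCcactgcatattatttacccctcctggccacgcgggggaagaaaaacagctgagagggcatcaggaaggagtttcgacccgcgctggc

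The downstream window holds ACGTG at 136 and 114 bases before the start site and a GC box on the opposite strand at 43 bases before it, and the upstream window holds ACGTG on the opposite strand at 196 bases before the start. Of 35116 promoter windows of the same length, 21.4% hold ACGTG and 45.0% hold the GC box. The searched AP-1, GATA and SOX letters are in neither EDNRB window and in 7.71%, 10.3% and 16.1% of all windows. Sites of these factors that depart from the searched letters are not counted and may be present in the EDNRB windows. The E-box letters CANNTG, left in lower case because 68.7% of all windows hold them, occur 3 times in the upstream and 1 time in the downstream window, with no overlap with the capitals. GC content is 53.3% in the upstream and 58.0% in the downstream window, against a median of 58.7%. A match is a string of letters and does not show that a factor binds.

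The EDNRB _s_at probe set read 7.39, 7.42 and 6.93 on aligned replicates 1, 2 and 3, against 7.97, 8.17 and 8.23 on random replicates 1, 2 and 3. All aligned values lay below all random ones, with a gap of 0.55 between the nearest arrays. The means were 7.24 ± 0.27 for the aligned and 8.12 ± 0.14 for the random arrays (SD, n = 3 each), a difference of -0.88 ± 0.15 (SE). As the RNA came from whole cultures, fewer cells that express a gene and less of its RNA per cell cannot be told apart.

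The EDNRB _x_at probe set gave 6.59, 6.55 and 6.10 on aligned fibers and 7.13, 7.31 and 7.64 on random fibers. Its difference was -0.95 ± 0.17 (SE). The EDNRB _at probe set gave 5.22, 5.31 and 4.71 on aligned fibers and 6.11, 6.24 and 6.68 on random fibers, a difference of -1.26 ± 0.20 (SE). It passed the filter only through the 3 random arrays, where it is high, since 0 of the 3 aligned arrays reached their median, so its passing is tied to its difference and the size of that difference is uncertain. The suffixes _s_at and _x_at mark probe sets that can share sequence with other transcripts, and the plain _at of the last one does not.

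**Figure D1:**
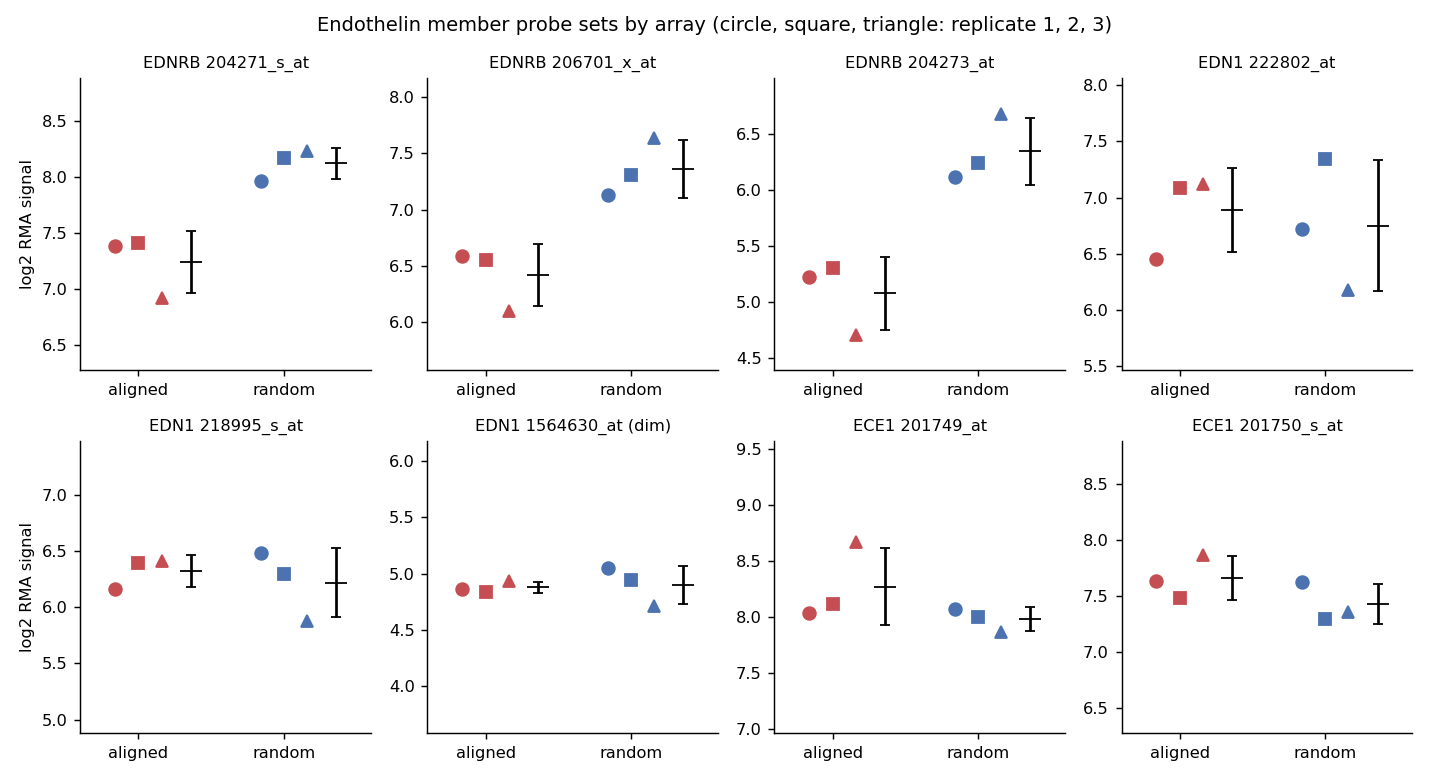
Log2 RMA signal of the 8 probe sets of EDNRB, EDN1 and ECE1 on each array, aligned (red) left of random (blue), with circles, squares and triangles for replicates 1, 2 and 3 and black bars for the mean ± SD of 3 arrays. All panels span the same log2 range, and the groups are apart in the 3 EDNRB panels and overlap in the other 5.

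The 3 EDNRB probe sets followed each other across the arrays. Once each was centred on its own mean, they lay within 0.11 to 0.42 log2 units of each other on any array, with the widest range on random replicate 3. EDNRB was chosen because all its probe sets read lower on aligned fibers. That shared step is part of this likeness, and agreement within the groups was not measured apart from it. Aligned replicate 3 was the lowest and random replicate 3 the highest array for all 3. Between arrays of the same replicate number, the _s_at probe set differed by -0.58, -0.75 and -1.31 for numbers 1, 2 and 3, the _x_at by -0.54, -0.76 and -1.54, and the _at by -0.89, -0.94 and -1.97. The difference was thus widest between the arrays numbered 3. Without aligned replicate 3 the 3 probe sets were at -0.72, -0.79 and -1.08. With all 6 arrays, single-array differences (any aligned to any random array) ran from -1.54 to -0.54 for the _s_at and _x_at probe sets. The _at probe set, dim on all aligned arrays, reached -1.97, and the sizes of its differences are uncertain.

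Set among the 27621 probe sets above the filter, the EDNRB differences of the _s_at and _x_at probe sets stood at rank 75 and 55 from the lowest, which restates the values behind the choice. Limma called 0 of these 27621 probe sets (0%) at an adjusted p under 0.05 with Benjamini-Hochberg adjustment, the lowest adjusted p being 0.506, and 2676 reached 0.05 before adjustment. In 8.86% of the probe sets all aligned values were below all random values, and in 7.61% all were above. All 3 EDNRB probe sets are in the first of these shares by their choice, and nothing is read from it. The within-group SD of the EDNRB probe sets was wider than that of 83.9%, 91.0% and 94.4% of all probe sets above the filter. Of the astrocyte markers, 6 of the 7 above the filter also had negative differences, with a list median of -0.17, and -0.11 without aligned replicate 3. Over all genes 47.5% had a negative difference. The intermediate filament gene GFAP differed by -0.81 ± 0.38 and FABP7 by -0.90 ± 0.44 (SE), both with overlap, and FABP7 by -0.32 without aligned replicate 3. GFAP was dim on aligned replicates 2 and 3 and on random replicate 3, so the size of its difference is uncertain. ALDOC, a glycolytic enzyme gene of astrocytes, differed by -0.29 ± 0.07 (SE) without overlap, and S100B, below the filter, read lower without overlap too. On the fibroblast and smooth muscle list 4 genes had a positive and 3 a negative difference, with a median of 0.07. Its genes without overlap, beside 8.71% above and 9.33% below over all genes, were PDGFRA and the contractile gene CNN1. PDGFRA differed by -1.95 ± 0.79 (SE), and by -0.90 without aligned replicate 3, while its other probe set above the filter was at -0.73. CNN1 differed by 0.35 ± 0.14 (SE), and by 0.19 without aligned replicate 3. It was dim on random replicates 1 and 3, so the size of its difference is uncertain. None of those above the filter passed limma, and the part of these markers in the EDNRB difference was not tested. EDNRB-AS1, the antisense gene named after EDNRB and looked up after the values were seen, was dim on all 6 arrays, with 4.42, 4.50 and 4.29 on aligned and 4.37, 4.69 and 4.41 on random fibers.

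EDN1, the gene of the endothelin-1 precursor, did not separate the substrates. Its brighter _at probe set read 6.46, 7.08 and 7.12 on aligned replicates 1, 2 and 3 and 6.72, 7.35 and 6.18 on random replicates 1, 2 and 3. The lowest and the highest of the 6 values were both random arrays, so the aligned values lay inside the random range. The difference was 0.14 ± 0.30 (SE), with a 95% confidence interval of -0.56 to 0.83 and an adjusted p of 0.877 in limma over all probe sets above the filter.

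The EDN1 _s_at probe set read 6.16, 6.39 and 6.42 on aligned and 6.48, 6.30 and 5.88 on random fibers, a difference of 0.10 (95% confidence interval -0.26 to 0.47, adjusted p = 0.813 in limma). For both probe sets random replicate 3 was the lowest array. Between arrays of equal number, the brighter _at probe set differed by -0.27, -0.26 and 0.94, so the positive mean came from the arrays numbered 3. Without random replicate 3 it turned to -0.15 for the brighter _at and to -0.065 for the _s_at probe set, and without aligned replicate 3 they were at 0.02 and 0.06. The other _at probe set of EDN1 was dim on all 6 arrays and did not pass the filter, at 4.86, 4.84 and 4.93 on aligned and 5.05, 4.94 and 4.71 on random fibers. Within the groups the brighter _at probe set varied more than 98.7% of all probe sets above the filter, and the _s_at one more than 87.6%.

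For comparison with the receptor, the EDN1 window with the most downstream of its 3 start sites is shown, as it is the one of the 3 with a GATA match, a motif family known for EDN1 control in endothelial cells. It lies on the plus strand at chr6:12290111-12290410 (RefSeq, GRCh38.p14), with capitals as above.
EDN1 downstream start: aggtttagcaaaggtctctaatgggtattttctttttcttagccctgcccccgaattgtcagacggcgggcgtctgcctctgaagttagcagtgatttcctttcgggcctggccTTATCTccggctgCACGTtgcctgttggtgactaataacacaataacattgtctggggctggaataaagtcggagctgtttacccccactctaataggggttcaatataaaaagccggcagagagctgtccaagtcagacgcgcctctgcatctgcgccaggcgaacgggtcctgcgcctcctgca

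This EDN1 window holds the GATA letters on the opposite strand at 136 bases before the start site. It holds ACGTG on the opposite strand at 123 bases before that site, and none of the searched AP-1, GC box or SOX letters. Only these letters were searched, so a site that departs from them is not counted and may be present. The most upstream EDN1 window holds ACGTG 2 times and the GC box 1 time, and the middle one none of the 5. The 4 ECE1 windows hold 0, 6, 1 and 1 GC boxes, from low to high coordinate on GRCh38.p14, and no match to the other capitalised motifs.

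ECE1, the protease that makes active endothelin-1, read slightly higher on aligned fibers, mostly on 1 array. The ECE1 _at probe set gave 8.03, 8.11 and 8.67 on aligned and 8.08, 8.0 and 7.87 on random fibers. The groups overlapped by 0.04, as aligned replicate 1 lay below random replicate 1. The means were 8.27 ± 0.34 for the aligned and 7.98 ± 0.11 for the random arrays (SD, n = 3 each). The difference was 0.29 ± 0.17 (SE; 95% confidence interval -0.10 to 0.68), with an adjusted p of 0.555 in limma.

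The ECE1 _s_at probe set gave 7.63, 7.48 and 7.87 on aligned and 7.63, 7.30 and 7.36 on random fibers, a difference of 0.23 ± 0.13 (SE; 95% confidence interval -0.07 to 0.54, adjusted p = 0.550 in limma). Aligned replicate 3 was the highest array for both ECE1 probe sets. Without it the differences were 0.09 for the _at and 0.13 for the _s_at probe set. Blocking on replicate number gave adjusted p of 0.458 and 0.401, and for EDN1 0.807 and 0.770, all in limma. Neither EDN1 nor ECE1 passed the test, and their intervals allow a change of either sign.

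**Figure D2:**
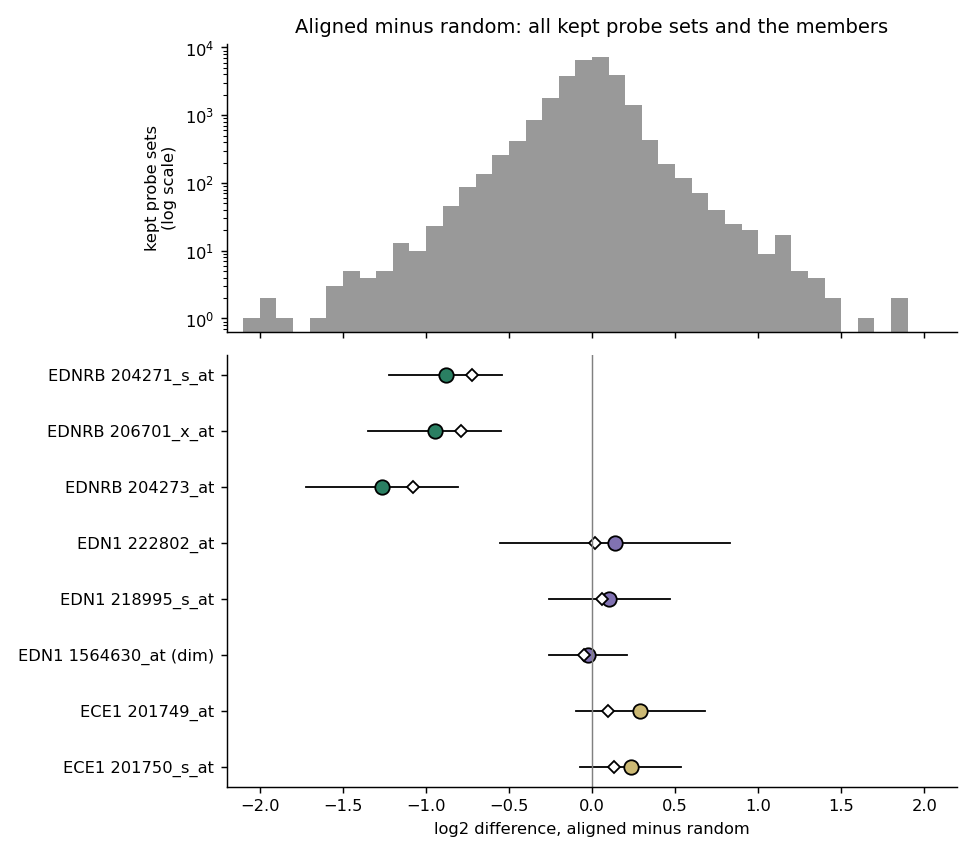
Top, number of probe sets above the filter (log axis) by their log2 difference, aligned minus random. Bottom, the 8 member probe sets with the difference over 6 arrays (filled circles), its 95% confidence interval from limma (lines) and the difference without aligned replicate 3 (open diamonds). The line of the dim EDN1 probe set is from the fit with no filter, and those of EDNRB, chosen on this contrast, are no test. EDNRB lies between -1.26 and -0.88, and EDN1 and ECE1 lie between -0.02 and 0.29.

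The other endothelin ligands and the proteases around them showed small differences. Of 13 genes on this list, 10 passed the filter and 0 passed limma over all 12381 genes (0% called, lowest adjusted p 0.463, 1303 under 0.05 before adjustment). Of the 10, 8 had a positive and 2 a negative difference, with a median of 0.08 against 0.0096 over all genes, and 0.012 without aligned replicate 3. Negative differences were found in 47.5% of all genes. The ligand genes EDN2 and EDN3 and the chymase gene CMA1 were dim. All aligned values were above all random values in 3 of the 10 genes and below them in 1, where 8.71% and 9.33% of all genes do so.

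Among the convertases of the furin family, PCSK6 read 5.98, 5.998 and 5.97 on aligned and 5.63, 5.84 and 5.72 on random fibers, a difference of 0.25 ± 0.08 (SE). PCSK6 was dim on random replicate 1, and only 1 of its 4 probe sets passed the filter. PCSK5 read 6.15, 6.11 and 6.17 on aligned and 6.31, 6.27 and 6.28 on random fibers, a difference of -0.14 ± 0.07 (SE). FURIN itself and PCSK7 overlapped between the groups, at 0.08 ± 0.10 and 0.03 ± 0.08 (SE).

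ECE2, a second converting enzyme, read 7.94, 8.15 and 8.67 on aligned and 7.89, 7.81 and 7.86 on random fibers. Its difference of 0.40 ± 0.17 (SE) became 0.19 without aligned replicate 3, its highest array, and another probe set of the gene was at 0.07. The related protease ECEL1 differed by 0.20 ± 0.10 (SE), without overlap, and by 0.13 without random replicate 3. Neprilysin, the endothelin-degrading enzyme encoded by MME, its relative MMEL1, the Kell protease KEL and the carboxypeptidase CTSA overlapped between the groups, with differences between -0.06 and 0.09.

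Of 5 receptors related in sequence to the endothelin receptors, only GRPR, the gastrin-releasing peptide receptor, passed the filter. GRPR read 6.17, 6.09 and 6.17 on aligned and 6.01, 5.995 and 5.64 on random fibers, a difference of 0.26 ± 0.11 (SE) that did not pass limma over all genes (adjusted p = 0.472). It was 0.25 without aligned replicate 3 and 0.14 without random replicate 3, its lowest array. GPR37, GPR37L1, BRS3 and NMBR were dim.

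Receptors for other vasoactive ligands were mostly dim, with 7 of 17 above the filter, 2 not analysed here and 0 past the test. Their median difference was 0.10, with 0.096 without aligned replicate 3 and -0.015 without random replicate 3. TBXA2R, the thromboxane receptor, read 7.29, 7.13 and 7.04 on aligned and 7.32, 7.34 and 7.40 on random fibers, a difference of -0.20 ± 0.09 (SE), while its 4 probe sets ranged from -0.20 to 0.05. The prostaglandin E receptor PTGER4 and the bradykinin receptor BDKRB2 overlapped between the groups, at 0.28 ± 0.16 and 0.10 ± 0.07 (SE), and PTGER4 was at 0.14 without random replicate 3.

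Of 28 genes for G proteins, phospholipase C and receptor regulators, 27 were analysed here and all 27 passed the filter. Of these, 16 had a positive and 11 a negative difference, and 0 passed the test over all genes. Their median difference was 0.07, and 0.032 without aligned replicate 3. The protein kinase C isoform gene PRKCE read 7.80, 7.81 and 8.07 on aligned and 7.64, 7.58 and 7.42 on random fibers, a difference of 0.35 ± 0.10 (SE), while its other probe set above the filter was at 0.01. PRKCD, another isoform, differed by 0.41 ± 0.17 (SE) and RGS5, which shortens G protein signals, by -0.30 ± 0.12 (SE), both with overlap. Without overlap were 2 genes above and 1 below, against 8.71% and 9.33% of all genes.

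Of 16 genes of the neural crest and melanocyte programme in which EDNRB acts, 14 were analysed here and 10 passed the filter. Of the 10, 6 had a positive and 4 a negative difference, and 0 passed the test. The median was 0.06, with 0.047 without aligned replicate 3 and -0.015 without random replicate 3. SOX9, a transcription factor of glia and neural crest, read 11.07, 11.27 and 10.52 on aligned and 11.35, 11.56 and 11.55 on random fibers, a difference of -0.53 ± 0.18 (SE) that was -0.31 without aligned replicate 3. SNAI2, a repressor of epithelial genes, read 8.98, 8.89 and 9.30 on aligned and 8.80, 8.64 and 8.09 on random fibers, a difference of 0.54 ± 0.19 (SE) that was 0.33 without random replicate 3. TFAP2A, a neural crest factor, differed by -0.32 ± 0.14 (SE) with overlap. The melanocyte factor PAX3 was dim.

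Of 20 factors that act on EDN1 transcription, 19 passed the filter, 13 with a positive and 6 with a negative difference and 0 past the test. Their median difference was 0.12, and 0.073 without aligned replicate 3. FOSL1, a subunit of AP-1, read 10.06, 10.04 and 10.26 on aligned and 9.75, 9.56 and 9.25 on random fibers, a difference of 0.60 ± 0.14 (SE). KLF2, which lowers EDN1 in endothelial cells, differed by 1.44 ± 0.39 (SE), and by 0.94 without aligned replicate 3. The ETS factor ETV5 differed by 0.46 ± 0.15 (SE). The groups of these 3 genes did not overlap, as was the case for 4 of the 19 genes above and 1 below, beside 8.71% and 9.33% of all genes.

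Genes that endothelin-1 can induce through MAP kinase had a median difference of 0.33. Of 20 such genes 18 were analysed here and 16 passed the filter. Of the 16, 15 had a positive and 1 a negative difference, and 0 passed the test over all genes. Over all genes 47.5% had a negative difference. FOS, JUN and JUNB are also on the list of factors that act on EDN1 transcription, and JUN and JUNB differed by only 0.05 and 0.007. All aligned values were above all random values in 3 of the 16 and below them in 0, where 8.71% and 9.33% of all genes do so. Without aligned replicate 3 the counts were 5 and 0, beside 10.8% and 12.1% of all genes. The median was 0.23 without aligned replicate 3 and 0.14 without random replicate 3. IER3, an early response gene that limits cell death, differed by 0.63 ± 0.23 (SE) with a small overlap, and by 0.41 without random replicate 3. SPRY2, a feedback inhibitor of receptor kinases, differed by 0.36 ± 0.14 (SE), and by 0.19 without random replicate 3. IER2, another early response gene, differed by 0.20 ± 0.08 (SE). The groups of SPRY2 and IER2 did not overlap.

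**Figure D3:**
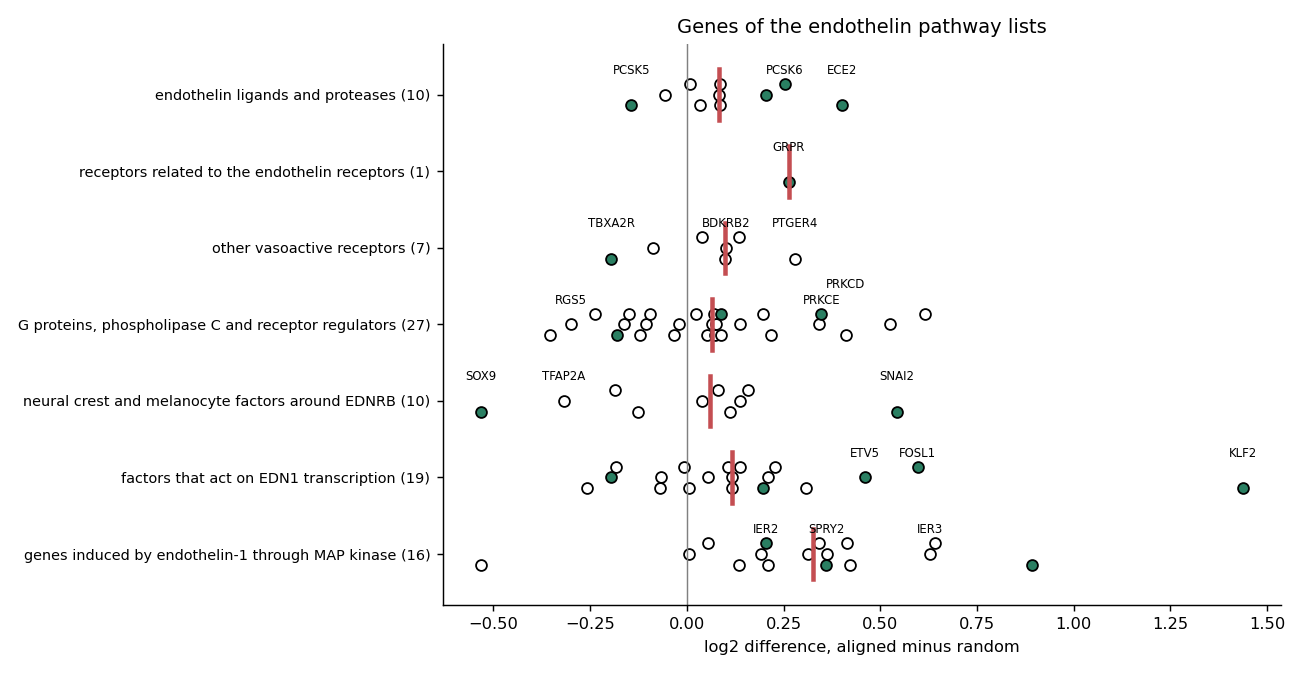
Log2 difference, aligned minus random, of each gene above the filter on the 7 pathway lists (number of genes in brackets). Filled circles are genes whose aligned and random arrays do not overlap, open circles those that overlap, red bars list medians, and labels the 3 genes per list whose unadjusted p is lowest. List medians lie between 0.06 and 0.33, and genes lie on both sides of 0 in 6 of 7 lists.

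Genes with a profile like that of EDNRB were sought by the root mean square distance between mean-centred profiles over the 6 arrays, for the EDNRB _s_at probe set and 12378 other genes. The nearest was NREP, a neuronal regeneration-related protein gene, at a distance of 0.10 log2 units, where a flat profile lies at 0.47 and the median gene at 0.49. NREP read 9.35, 9.51 and 8.78 on aligned and 9.79, 9.97 and 10.17 on random fibers. OR7E14P, an olfactory receptor pseudogene, was next at 0.11. The zinc finger gene ZNF436, the interferon-induced GTPase gene GBP2 and CDON, a cell surface receptor of the immunoglobulin family, followed at 0.12 each. Their differences ran from -0.83 to -0.68.

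The nearest to the mirror image of the EDNRB profile was SRGAP1, a GTPase-activating protein of the Slit and Robo pathway, at 0.098. SRGAP1 read 7.90, 8.01 and 8.44 on aligned and 7.48, 7.44 and 7.24 on random fibers. TMCC3, the actin regulator gene MICAL2, the chemokine gene CXCL2 and the collagen receptor gene DDR2 followed at 0.12 to 0.13, with differences from 0.77 to 0.92. TMCC3 was dim on random replicates 2 and 3, so its difference and its distance are uncertain. Such likeness is a description over 6 arrays that share 1 contrast, and the distant array aligned replicate 3 is at the end of each profile.

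**Figure D4:**
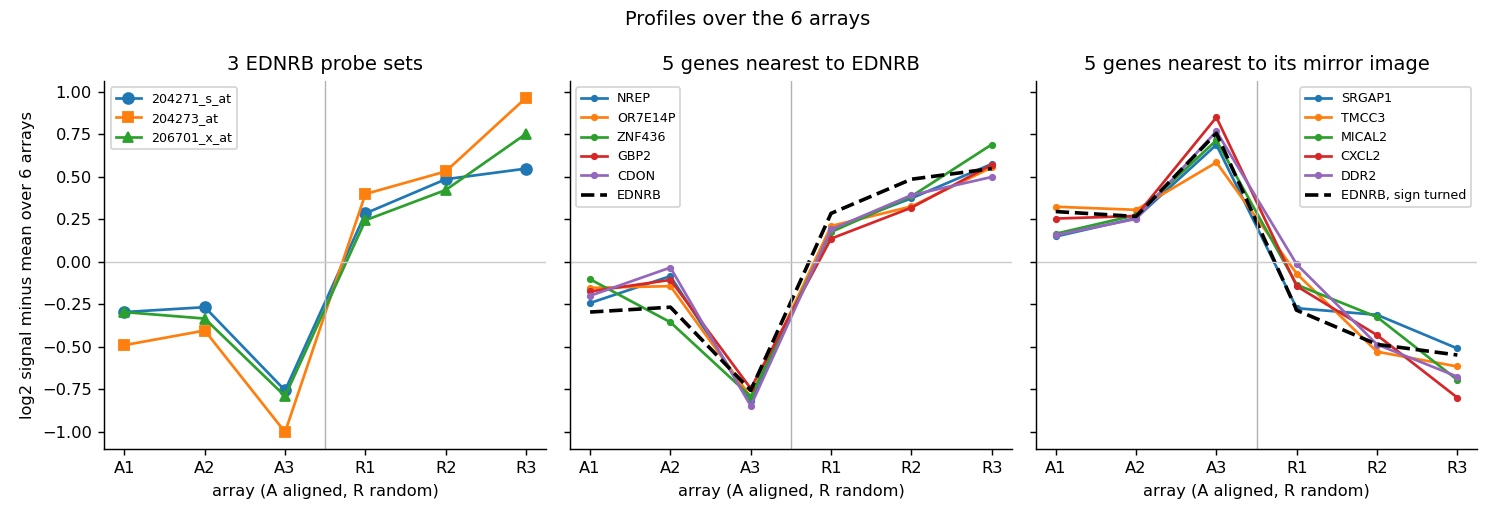
Log2 signal minus its mean over the 6 arrays for the 3 EDNRB probe sets (left), the 5 genes nearest to EDNRB (middle) and the 5 nearest to its mirror image (right), with arrays A1 to A3 aligned and R1 to R3 random, and the dashed line for the _s_at probe set of EDNRB, with its sign turned on the right. Lines only join values of 1 probe set or gene. A3 is the lowest array in the left and middle panels and the highest in the right one.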

How the data were processed

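Total RNA from 6 U251 cultures was hybridised to 1 array each, with biotinylated cRNA made from 10 µg of RNA, per the labels' protocols. The log2 values deposited for each array are the authors' RMA output, per the submitters' processing notes. RMA subtracts background, gives all arrays 1 distribution and combines a set's probes, so a signal shift common to a whole array is removed. The RMA version is not given in the sources used. The number of arrays limits the precision.

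From these values 62 control probe sets of 54675 were set aside. Probe sets were kept when at least 3 of 6 arrays exceeded their own median (27621), and the gene fit used the brightest kept probe set of each symbol (12381 genes). Of 54613 probe sets, 41091 carried 1 symbol, 1801 several and 11721 were unnamed here. The comparison was fitted in R 4.3.3 by limma 3.58.1 (lmFit, eBayes), without covariate, with two-sided tests and Benjamini-Hochberg adjustment at 0.05. The fit was tested on simulated data. Promoter windows and motifs were read in Python 3.11.15, and figures drawn with matplotlib 3.10.9.

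Members and lists were chosen with earlier results of these data known. Named genes were all member probe sets, all kept ligand, protease and related receptor genes, the 3 smallest unadjusted p of each other list, and the 5 nearest profiles on each side. For 1 listed gene no result is reported here. Between arrays of equal replicate number, the correlation across genes of their deviations from group means was 0.369, 0.322 and 0.109. All exceed 0.1, the limit set for treating the numbers as pairs. Aligned 2 and random 3, of unequal number, reached 0.188, above the 0.109 of an equal pair, so pairing is not settled. The main fit takes the arrays as unpaired. The fit was repeated unfiltered, with the filter at the 75th percentile, with median centring, repeated quantile normalization, a trended robust prior, the replicate block, other summaries of a gene's probe sets and each array left out.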

Additional observations from a re-analysis of the deposited data

How the results depend on the processing

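The 3 member genes kept the sign of their difference with median centring, repeated quantile normalization, the replicate block and the mean of all their probe sets. EDNRB was at -0.88 and moved to -1.26 when probe sets with the suffix _s_at or _x_at were left out, which leaves the _at probe set, dim on aligned fibers. Leaving out 1 array at a time, EDNRB lay between -0.97 and -0.72 and ECE1 between 0.093 and 0.41, lowest without aligned replicate 3. EDN1 lay between -0.15 and 0.44 and was reversed only without random replicate 3, and the cause was not tested. Limma called 0 probe sets and 0 genes under the alternatives run, with the replicate block as without it, except 1 probe set without aligned replicate 1, so the range with 1 array left out was 0 to 1. That probe set is of MED18, named after its values were seen, and no member. The median of the endothelin ligands and proteases lay between 0.012 and 0.12 with 1 array left out. That of the related receptors became 0.11 with no filter, where 4 dim genes join GRPR. Without aligned replicate 3, an alternative chosen after seeing the data, genes without overlap on the lower side were 2 in place of 1 for the ligands and proteases and for the G protein list, while the share of all genes was 12.1% in place of 9.33%, as fewer arrays make non-overlap easier. A planned contrast between 2 receptor genes was not run, as 1 gene is not analysed here. Depth is not defined for arrays, and dim probe sets such as the dim one of EDN1 cannot show small differences.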

Other observations

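Some genes of the pathway lists that the naming rule did not take also had aligned and random arrays without overlap, and they are named here after their values were seen. ITPR2, a calcium channel of the endoplasmic reticulum that opens on inositol trisphosphate, read 6.10, 6.18 and 6.18 on aligned and 6.28, 6.28 and 6.45 on random fibers, a difference of -0.18 ± 0.08 (SE). The 3 ITPR2 probe sets above the filter ranged from -0.22 to 0.085. GRK6, a kinase that turns off G protein-coupled receptors, differed by 0.09 ± 0.07 (SE), while its 4 probe sets above the filter ranged from -0.03 to 0.09. Among the factors that act on EDN1, GATA4 differed by 0.20 ± 0.09 (SE) and VEZF1, a zinc finger factor of endothelial cells, by -0.20 ± 0.08 (SE). GATA4 was dim on random replicate 2, and only 1 of its 5 probe sets passed the filter.

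Among the MAP kinase genes, MYC read 8.60, 8.92 and 10.02 on aligned and 8.51, 8.58 and 7.77 on random fibers. Its difference was 0.89 ± 0.38 (SE), and 0.47 without aligned replicate 3. EGR1, an early response transcription factor, was the 1 gene of 16 with a negative difference, at 7.62, 7.82 and 6.96 on aligned and 8.06, 8.21 and 7.73 on random fibers, with overlap between the groups. Its difference was -0.53, and -0.28 without aligned replicate 3. CCN2, a matricellular protein gene, differed by 0.64 ± 0.35 (SE) and by 0.19 without random replicate 3, its lowest array. None of these genes passed limma over all 12381 genes.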
